A study of Mus musculus with 5 samples.

Results

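Phosphofructokinase and glucose entry were followed through the development of the mouse cerebellum with 3 genes: Pfkl and Pfkm, which encode the liver-type and muscle-type subunits of phosphofructokinase, and Slc2a1, which encodes the glucose transporter GLUT1. They were taken as the probes whose single gene symbol is one of these names. Each gene had 1 probe, so they account for 3 of 897 probes and 3 of the 773 genes that the array's annotation names by a single symbol, and no probe with several symbols named any of them. Total RNA of whole cerebellum was measured on arrays on embryonic day 18 (E18) and on days 7 (P7), 14 (P14), 21 (P21) and 56 (P56) after birth; the sources used here name no strain, sex or treatment. Each age has 1 column, described in the labels as a mean over 2 array experiments, so no difference below has a replicate check, no error can be given and the number of arrays limits the precision. Nothing in the labels says whether the 2 experiments used separate animals. All values lie between 0.01 and 100, and each is taken here as a percent of the level the same probe reached at its peak, scaled within an experiment before the experiments were averaged. A percent therefore has meaning beside the other ages of its gene, but none beside the percent of another gene.

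Phosphofructokinase adds a second phosphate to fructose 6-phosphate, the committed and most tightly regulated step of glycolysis. The working enzyme is a tetramer, built from liver-type, muscle-type and platelet-type subunits in proportions that differ between tissues, and the subunit types differ in how they respond to ATP, citrate and fructose bisphosphates. GLUT1 lets glucose cross membranes by facilitated diffusion. In the brain it is concentrated in the endothelial cells of the blood-brain barrier and is also made by glia, and the brain's need for glucose rises after birth as neurons mature and the milk diet, rich in fat, gives way to carbohydrate.

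The 3 genes lie on 3 chromosomes, each with its own start sites, and the sequence before those starts is shown because the phosphofructokinase genes followed different courses. The windows hold the 250 bases before a start in RefSeq's annotation of GRCm38.p6, printed 5′ to 3′ on the gene's strand. Capitals mark GGGCGG (the GC box), ACGTG (a form of the core bound by hypoxia-inducible factors) and CACGTG (a form of the E-box, which contains ACGTG), searched on both strands. Other forms of these motifs were not searched for. Pfkl has 1 window, at chr10:78009808-78010057 on the minus strand. Slc2a1 has 1, at chr4:119108495-119108744 on the plus strand. Pfkm has 4, on the plus strand of chromosome 15, and the data do not show which of its starts was used; window 1, at chr15:98092339-98092588, and window 3, at chr15:98108306-98108555, are shown as those of lowest and highest G and C content.
Pfkl: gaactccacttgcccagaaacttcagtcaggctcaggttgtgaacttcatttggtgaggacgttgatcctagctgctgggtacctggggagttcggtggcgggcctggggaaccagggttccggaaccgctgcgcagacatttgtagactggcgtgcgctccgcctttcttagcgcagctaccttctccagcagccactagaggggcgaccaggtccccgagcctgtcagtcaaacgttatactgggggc
Pfkm window 1: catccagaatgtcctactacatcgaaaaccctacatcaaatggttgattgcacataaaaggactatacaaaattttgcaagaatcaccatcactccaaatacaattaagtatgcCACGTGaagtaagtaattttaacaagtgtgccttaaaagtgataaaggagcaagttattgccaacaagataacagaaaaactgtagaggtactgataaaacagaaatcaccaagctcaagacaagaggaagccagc
Pfkm window 3: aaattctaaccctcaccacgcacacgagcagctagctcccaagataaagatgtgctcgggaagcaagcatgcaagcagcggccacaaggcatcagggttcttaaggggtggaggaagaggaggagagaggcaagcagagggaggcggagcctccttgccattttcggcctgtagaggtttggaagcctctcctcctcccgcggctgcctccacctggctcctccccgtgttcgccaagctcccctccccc
Slc2a1: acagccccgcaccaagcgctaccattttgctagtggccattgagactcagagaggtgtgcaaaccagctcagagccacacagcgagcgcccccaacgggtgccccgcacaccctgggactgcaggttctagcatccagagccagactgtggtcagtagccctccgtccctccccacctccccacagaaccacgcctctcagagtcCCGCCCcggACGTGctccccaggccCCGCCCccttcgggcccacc
The Slc2a1 window, with 66.4% G and C, held 2 GC boxes, 45 and 20 bases before the start, and 1 ACGTG, 36 bases before it. The Pfkl window, with 59.2% G and C, held no match to the exact letters searched for, and neither did window 3 of Pfkm, with 60.4%. Window 1 of Pfkm, with 36.4%, held 1 E-box, 136 bases before its start; of those not printed, window 2 held 1 ACGTG, 244 bases before its start, and window 4 held none. Of 32851 such windows of all genes, 32.7% held a GC box, 16.6% an ACGTG and 6.02% an E-box, so a match in 1 window is a description and not a binding site.

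Over the series, Pfkl was highest in the embryo and Pfkm in the adult, while Slc2a1 dipped at P7 and recovered. Pfkl stood at 100% at E18, 58.9% at P7, 40.9% at P14, 46.6% at P21 and 65.3% at P56. It was thus highest before birth, lowest at P14 and partly restored in the adult. Pfkm stood at 26.4% at E18, 39.7% at P7, 66.9% at P14, 92.9% at P21 and 100% at P56. Each later age was higher than the one before it, with the last step the smallest. Slc2a1 stood at 63.5% at E18, 28.1% at P7, 64.0% at P14, 83.5% at P21 and 87.6% at P56. Its lowest age was P7, and by P14 its deposited value was back near that of E18. Over all 897 probes the median value was 84.5% at E18, 82.8% at P7, 55.5% at P14, 42.3% at P21 and 42.0% at P56, so the typical probe declined over the period in which Pfkm and Slc2a1 climbed. RNA of whole tissue cannot tell fewer cells of a type from less RNA in each cell.

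**Figure D1:**
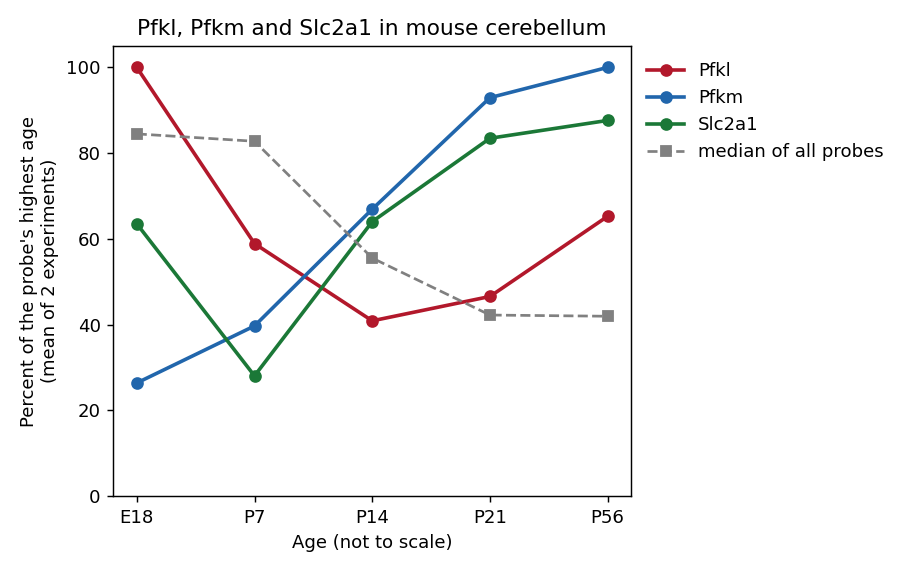
Percent of the probe's highest age (vertical axis, mean of 2 experiments, 1 column per age) at E18, P7, P14, P21 and P56 for Pfkl, Pfkm and Slc2a1, with the median of all 897 probes as a dashed grey line. Pfkl has its lowest point at P14 (40.9%), Slc2a1 at P7 (28.1%), and Pfkm climbs from E18 (26.4%) to P56 (100%); heights of different genes cannot be compared.

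The adult cerebellum was first set against the embryonic one. A gene is said to have risen or fallen where its 2 values differed by 2-fold or more, a rule of size that stands in for a test. Pfkm rose: it stood at 100% at P56 against 26.4% at E18, which is 3.79-fold (log2 difference 1.92). Among all probes 22.6% rose and 52.5% fell, and 90.0% had a smaller log2 difference than Pfkm. Pfkl stood at 65.3% at P56 against 100% at E18, a log2 difference of -0.62 that did not reach 2-fold. Slc2a1 stood at 87.6% at P56 against 63.5% at E18, a log2 difference of 0.46 that did not reach it either. Against the median probe, which had a log2 difference of -1.07, Pfkm lay 2.99 higher, Slc2a1 1.53 higher and Pfkl 0.46 higher. The scale between columns is not stated, and dividing each column by its median moves the median difference by 1.01. On that scale Pfkm rose by 2.93 (log2), Slc2a1 passed 2-fold at 1.47 and Pfkl took the opposite sign, 0.39. With quantile normalization Pfkl kept its downward sign, -0.32. The direction of Pfkl in the adult relative to E18 therefore depends on the scale. That of Pfkm and Slc2a1 was upward with deposited values, divided columns and quantile normalization.

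In the first postnatal week Slc2a1 fell. It stood at 28.1% at P7 against 63.5% at E18, a 2.26-fold lower value (log2 difference -1.18). In this step 2.79% of all probes fell, and Slc2a1 ranked 14 from the bottom of 897. Pfkl stood at 58.9% at P7 against 100% at E18, a log2 difference of -0.76, ranked 50 from the bottom. Pfkm stood at 39.7% at P7 against 26.4% at E18, a log2 difference of 0.59, with 85.7% of probes below it. The median probe had a log2 difference of 0.05. The difference of Slc2a1 was -1.15 with columns divided by their medians and -1.24 with quantile normalization, which also took Pfkl past 2-fold (-1.06) and left Pfkm at 0.36. Raising all values below their 25th percentile to it, which lifts Slc2a1 at P7, gave -0.83, short of 2-fold.

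From P7 to P14 Slc2a1 rose. It stood at 64.0% at P14 against 28.1% at P7, a 2.28-fold higher value (log2 difference 1.19), in a step in which 14.4% of probes rose and 24.7% fell. With that floor the difference was 0.84. Pfkm stood at 66.9% at P14 against 39.7% at P7, a log2 difference of 0.75 that passed 2-fold with columns divided by their medians (1.33) and with quantile normalization (1.25). Pfkl stood at 40.9% at P14 against 58.9% at P7, a log2 difference of -0.53, close to the median probe's -0.58, and 0.05 with columns divided by their medians. Of all 897 probes 5 fell 2-fold by P7 and then rose 2-fold by P14. Besides Slc2a1 these were Nr4a1, an immediate early gene, Gadd45b, a stress-response gene, Jup, which encodes the junction protein plakoglobin, and Vamp2, which encodes a synaptic vesicle fusion protein; they were chosen after their values were seen.

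After P14 none of the 3 genes changed by 2-fold in either step, where 16.4% of probes did so from P14 to P21 and 4.91% from P21 to P56. Slc2a1 stood at 83.5% at P21 against 64.0% at P14, a log2 difference of 0.38, and 87.6% at P56 against 83.5% at P21, a log2 difference of 0.07. Pfkm had log2 differences of 0.47 from P14 to P21 and 0.11 from P21 to P56. Both genes thus had most of their course behind them at P21. Pfkl took another course: 46.6% at P21 against 40.9% at P14 (log2 difference 0.19), and 65.3% at P56 against 46.6% at P21 (0.49), with 88.0% of probes below it in the last step. From P14 to P56 its log2 difference was 0.67, and 90.6% of probes had a smaller one.

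Set against E18, Pfkl fell and Pfkm rose at P14 and P21. Pfkl was 2.44-fold lower at P14, where 31.3% of probes had fallen, and 2.15-fold lower at P21, where 52.5% had. With columns divided by their medians these log2 differences, -1.29 and -1.10 as deposited, were -0.68 and -0.10, and neither reached 2-fold. Pfkm was 2.53-fold higher at P14, where 19.8% of probes had risen, and 3.52-fold higher at P21, where 21.1% had. Slc2a1 at P14 had a log2 difference from E18 of 0.01 as deposited. It was 0.62 with columns divided by their medians and 0.57 with quantile normalization. Set against P7, its lowest age, Slc2a1 was 3.12-fold higher at P56 (log2 difference 1.64), and Pfkm was 2.52-fold higher; 18.8% of probes rose 2-fold or more between these ages, and 89.7% had a smaller log2 difference than Slc2a1.

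**Figure D2:**
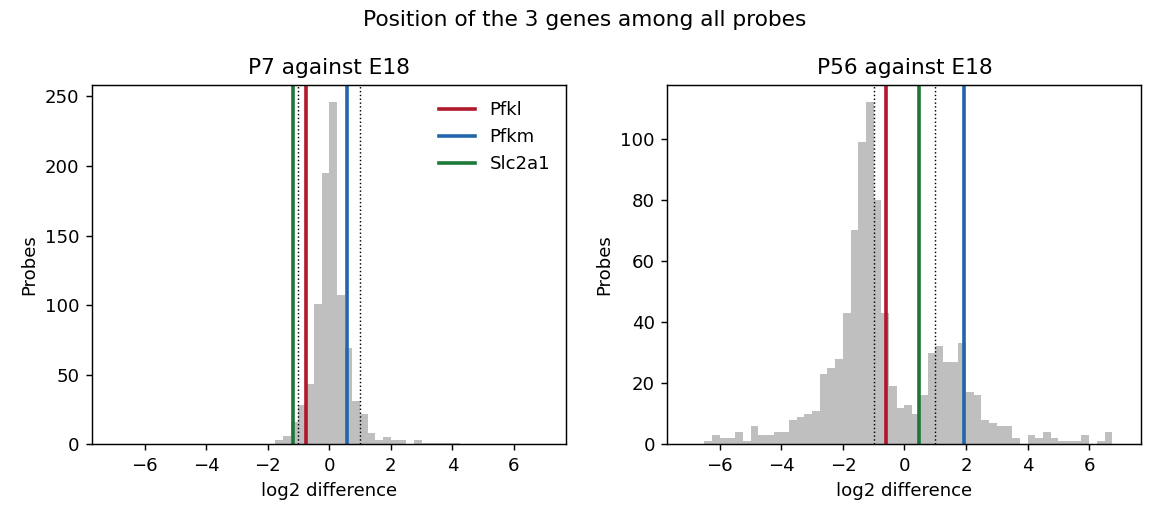
Number of probes (vertical axis) by log2 difference (horizontal axis, bins of equal width) for P7 against E18 on the left and P56 against E18 on the right, with coloured lines for Pfkl, Pfkm and Slc2a1 and dotted lines at 2-fold. At P7 Slc2a1 (-1.18) lies in the lower tail of a narrow distribution; at P56 Pfkm (1.92) lies among the probes that rose, and Pfkl (-0.62) and Slc2a1 (0.46) lie between the bulk of falling probes and the rising ones.

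The courses of the genes were also compared with each other as changes since E18. Any factor common to a whole deposited column cancels from this measure. A factor of a single array, acting before the scaling and averaging assumed here, need not cancel. Pfkm gained on Pfkl: the difference between their log2 changes was 1.35 at P7, 2.63 at P14, 2.92 at P21 and 2.54 at P56. At P56 this is a 5.80-fold shift of Pfkm relative to Pfkl, and at P21 it was 7.56-fold. Most of the shift was reached by P14, and between P21 and P56 the difference moved by -0.38 as Pfkl recovered. These are shifts in a ratio relative to its own value at E18, not the ratio of muscle-type to liver-type transcripts, which percent values cannot give. Pfkm also gained on Slc2a1, by 1.77 at P7, 1.33 at P14, 1.42 at P21 and 1.46 at P56. From P7 to P14 Slc2a1 moved further than Pfkm, by a difference of -0.44, and in the 2 later steps the differences were 0.09 and 0.04. For Slc2a1 against Pfkl the difference was -0.41 at P7, and afterwards it was positive, with 1.30 at P14 and 1.08 at P56, and a 2.82-fold shift at P21. With quantile normalization, where the common factor does not cancel exactly, the values at P56 were 2.31 for Pfkm against Pfkl, 1.10 for Pfkm against Slc2a1 and 1.21 for Slc2a1 against Pfkl.

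**Figure D3:**
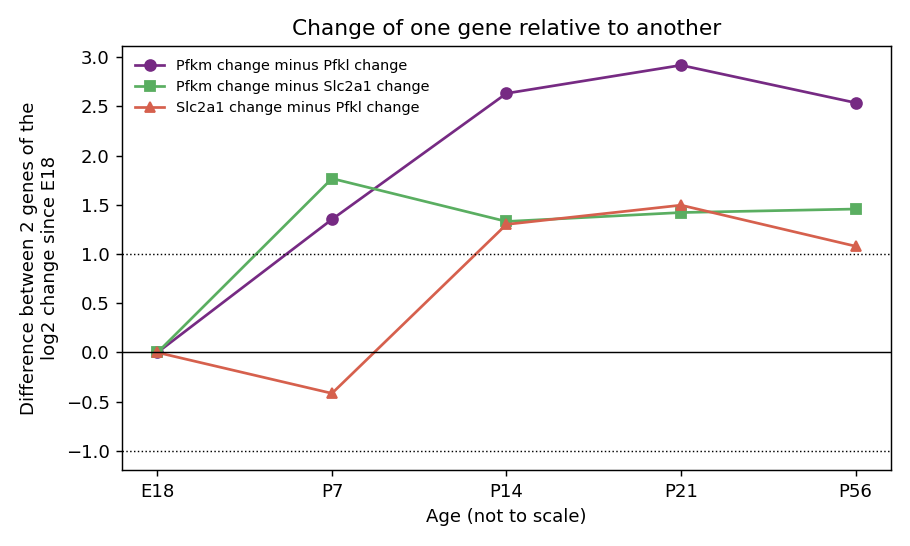
Difference between the log2 changes since E18 of a pair of genes (vertical axis) at each age, with 0 at E18 by construction and dotted lines at 2-fold. Pfkm against Pfkl climbs to 2.92 at P21 and is 2.54 at P56, while Slc2a1 against Pfkl is below 0 at P7 (-0.41) and 1.08 at P56.

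The averaging of 2 experiments limits what a single one can have shown. If each experiment was scaled to 100 at its highest age, a mean of exactly 100 requires both experiments to be highest at that age, as for Pfkl at E18 and Pfkm at P56. Slc2a1 has no such age, as is true of 477 of the 897 probes, so its experiments were highest at different ages. A mean of 26.4% for Pfkm at E18 allows at most 52.8% in either experiment, so Pfkm at P56 was at least 1.89-fold higher than at E18 in both. In the same way Slc2a1 at P7 was at most 56.1% in either, at least 1.78-fold below its highest age in both, and Pfkl at P14 was at most 81.8%, at least 1.22-fold below E18 in both. When 2 means lie over 50 points apart, neither experiment can have moved the other way. This holds for Pfkm at P56 against E18 (73.6 points), Slc2a1 at P56 against P7 (59.6 points) and Pfkl at P14 against E18 (-59.1 points), but not for Slc2a1 at P7 against E18 (-35.5 points) or P14 against P7 (36.0 points), nor for Pfkl at P56 against P14 (24.4 points).

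The shape of each course was placed among all probes. Pfkm was one of 66 probes, 7.36% of the table, that were higher at each later age. Pfkl was one of 313 probes highest at E18 and of 37 that were also lowest at P14. Of the 313, 12 had a P56 value at least as far above P14, on the log2 scale, as Pfkl. Slc2a1 was one of 30 probes lowest at P7 and highest at P56. Of the 25 probes that fell 2-fold by P7, 7 were higher at P56 than at E18, Slc2a1 among them. At P56 against E18, 71.9% of all probes had a smaller log2 difference than Slc2a1 (0.46), and 64.1% a smaller one than Pfkl (-0.62). A higher value at P56 than at E18 was thus no more frequent among the 25 than among all probes. The table is likely a selection of probes, so these shares describe the table and not the transcriptome.

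For each gene the 6 named genes with the most similar course were found by the mean absolute difference in percent points over the 5 ages, across 772 other genes. For Pfkl the nearest was Tcof1, which encodes treacle, a factor of ribosomal RNA synthesis, at 0.97 points: Tcof1 stood at 100% at E18, 60.6% at P7, 41.8% at P14, 46.8% at P21 and 63.1% at P56. Of the 787 probes with a single symbol, 2.03% lay closer to their nearest neighbour. It was followed by Cbr1, a carbonyl reductase gene, at 4.02 points, Cd83, an immune surface glycoprotein gene, at 5.01, Resp18 at 5.58, Tnks1bp1 at 6.01 and S100a10, which encodes the partner of annexin A2, at 6.57. For Pfkm the nearest were Glrb, a glycine receptor subunit gene, at 3 points, Penk, the proenkephalin gene, at 3.29, Specc1 at 3.64, Gria1, an AMPA receptor subunit gene, at 3.84, Atp2a2, a calcium pump gene of the endoplasmic reticulum, at 3.99, and Dnm1, the gene of neuronal dynamin, at 4.13. Such closeness was ordinary in the table: 55.0% of the 787 probes lay closer to their nearest neighbour than Pfkm to Glrb.

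Slc2a1 had no close neighbour. Its nearest gene, Sec62, which takes part in protein entry to the endoplasmic reticulum, lay 9.002 points away, and 98.5% of probes were closer than this to their own nearest. Faah, which encodes an enzyme that breaks down endocannabinoids, followed at 9.06 points, Apod, the apolipoprotein D gene, at 9.24, Gdpd3 at 9.64, Josd2 at 9.73 and Atp6v1a, a subunit gene of the vesicular proton pump, at 9.94. Apod shared the dip: it stood at 63.9% at E18, 25.7% at P7, 38.6% at P14, 77.8% at P21 and 100% at P56. Slc2a1 lay 14.7 points from Pfkm, which was its neighbour 61 of 772, and 29.9 points from Pfkl, at 248.

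Few other genes of glucose metabolism could be read. Of 37 genes listed for glycolysis and its branches, the named probes held Pfkl, Pfkm and Gpd1, which encodes the cytosolic glycerol 3-phosphate dehydrogenase. At P56 against E18, 2 of them, Pfkm and Gpd1, rose and 0 fell, where 22.0% of all 773 named genes rose and 52.8% fell. The median log2 difference of the 3 was 1.92, the value of Pfkm itself, beside -1.07 for all named genes. The list thus adds only Gpd1 to the genes already described. Gpd1 stood at 9.39% at E18, 9.52% at P7, 70.8% at P14, 100% at P21 and 80.1% at P56. It rose 8.53-fold at P56 against E18, with most of its rise between P7 and P14 (7.43-fold), the step in which Slc2a1 rose. Slc2a1 was the only measured gene of 22 for glucose and monocarboxylate transport. The third phosphofructokinase gene, Pfkp, and the genes listed for glycogen, the citrate cycle, energy sensing and the respiratory chain were not analysed here.

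The pentose phosphate pathway branches from glycolysis above phosphofructokinase and supplies NADPH and ribose. Of 16 genes listed for it and for hexosamine synthesis 3 were measured, all of the pentose phosphate pathway, and 3 fell at P56 against E18, with a median log2 difference of -1.88, beside 52.8% of all named genes that fell and their median of -1.07. Pgls, the lactonase gene, was 4.41-fold lower, Pgd, the gene of the second dehydrogenase, 3.69-fold lower and Tkt, the transketolase gene, 2.32-fold lower. Pgls was the one that fell once each column was divided by its median. Tkt stood at 42.9% at P56 against 99.8% at E18, and Pgls at 18.6% at P56 against 82.2% at E18.

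Of 4 measured genes of phosphagen and nucleotide energy 2 rose and 2 fell at P56 against E18, with a median of 0.01. In the table of named genes 22.0% were called risen, 52.8% were called fallen, and the middle log2 difference was -1.07. The 2 falls among 4 are therefore close to the share of the whole table. Slc6a8, the creatine transporter gene, rose 3.57-fold, to 89.4% at P56 against 25.04% at E18. Ak4, a mitochondrial adenylate kinase gene, rose 2.85-fold, to 95.7% at P56 against 33.6% at E18. Nme1 and Nme2, the nucleoside diphosphate kinase genes, were 2.80-fold and 3.34-fold lower; with columns divided by their medians neither reached 2-fold. Scd1, a fatty acid desaturase gene, rose 4.31-fold, where 22.0% of all named genes rose. It was the single measured gene of 24 listed for ketone and fatty acid use, and its rise does not measure the use of these fuels.

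Of 14 genes listed for pumps that spend ATP on ion gradients 4 were measured and 4 rose at P56 against E18, with a median of 2.20, beside 22.0% of all named genes and their median of -1.07. Atp1b2, a sodium pump subunit gene of glia, rose 5.48-fold, Atp2a2 3.83-fold and Atp6v1a 2.36-fold. Atp2a3, another calcium pump gene, has 2 probes, of which one was under 1% at E18; their mean rose at least 37.3-fold. Atp2a2, among the nearest courses to Pfkm, stood at 24.4% at E18, 38.7% at P7, 63.9% at P14, 100% at P21 and 93.2% at P56, and Atp6v1a, among the nearest to Slc2a1, at 38.1%, 42.2%, 67.5%, 88.1% and 89.7% at the same ages.

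**Figure D4:**
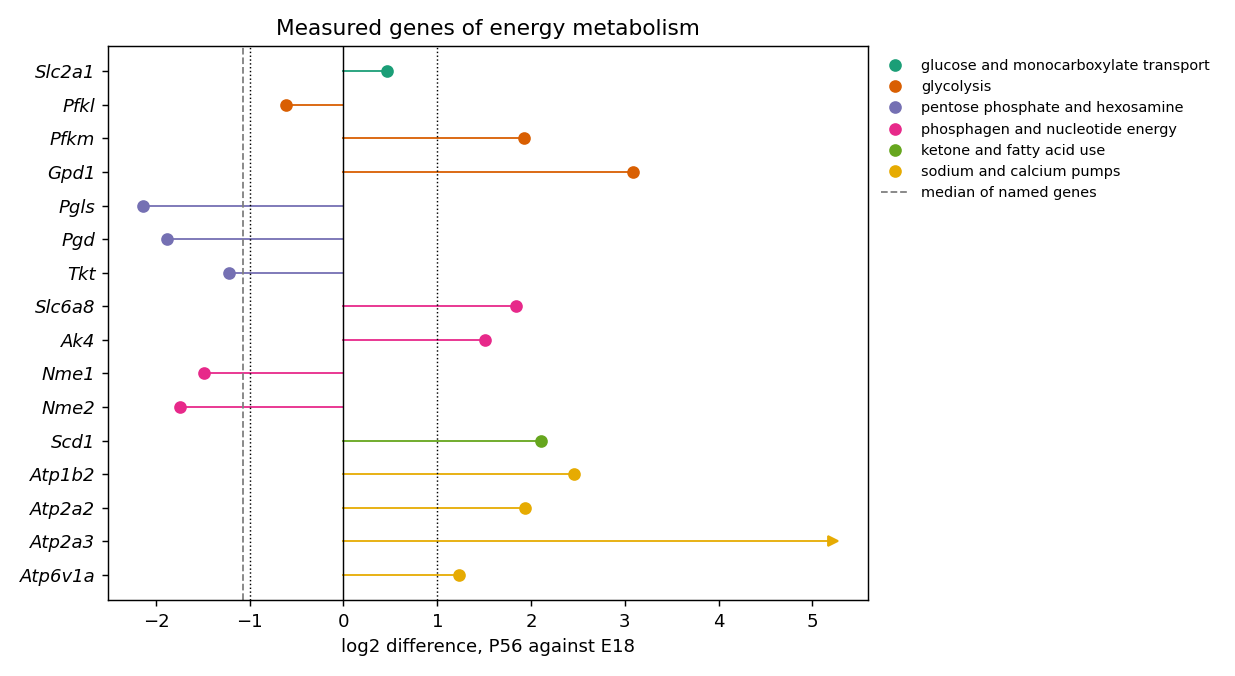
Log2 difference of P56 against E18 (horizontal axis) for each measured gene of 6 lists of energy metabolism, coloured by list, with dotted lines at 2-fold and the median of named genes as a dashed grey line (-1.07). Pfkm (1.92), Gpd1 (3.09) and the pump genes lie to the right, the 3 pentose phosphate genes, Nme1 and Nme2 to the left, and the arrowhead of Atp2a3 marks a lower bound.

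Markers of cells that carry these transporters and enzymes moved with age too, and their part in the results was not tested. Of 22 genes listed for endothelial cells and pericytes 4 were measured, of which 3 fell and 0 rose at P56 against E18, with a median of -1.93, beside 52.8% of all named genes that fell and their median of -1.07; with columns divided by their medians 2 fell and 1 rose. Kdr, a VEGF receptor gene of endothelium, stood at 100% at E18, 92.3% at P7, 54.6% at P14, 37.7% at P21 and 27.8% at P56. It was thus highest at E18 and lower at each later age. Col4a1 and Col4a2, collagen genes of the vessel wall, were 7.66-fold and 4.05-fold lower, and Pltp stood at 100% at P56 against 50.6% at E18. Defining barrier markers such as Cldn5 and Cdh5 were not analysed here.

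Of 13 genes listed for astrocytes and Bergmann glia 6 were measured, and 6 rose at P56 against E18, with a median of 2.62. Agt and S100b rose most, 16.4-fold and 16.1-fold, followed by Aqp4 (6.86-fold) and Atp1b2 (5.48-fold), and Gfap (5.41-fold) and Gjb6 (3.49-fold) rose least. Among all named genes 22.0% rose. At P7 against E18, 4 of the 6 rose and 0 fell, where 5.82% of all named genes rose and 2.72% fell. Those that rose were Gfap (12.2-fold), Agt (10.9-fold), Aqp4 (8.76-fold) and S100b (3.15-fold). The other two did not reach 2-fold: Atp1b2 stood at 13.5% at P7 against 13.6% at E18, and Gjb6, a connexin gene of astrocytes, at 17.1% at P7 against 28.6% at E18. Ank1, the single measured gene of the erythroid list, which neurons also express, rose 6.27-fold at P56 against E18. Actc1, the single measured gene of 13 on the muscle list, was 2.79-fold lower at P56 than at E18, where 52.8% of all named genes fell. Among lists for cells of the cerebellum itself, 4 of 6 mature granule cell genes were measured and 4 rose at P56 against E18, 3 of 6 myelin genes were measured and 3 rose, and 5 of 7 genes of dividing cells were measured and 5 fell, where 22.0% of all named genes rose and 52.8% fell.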

How the data were processed

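Total RNA of mouse cerebellum at 5 ages was hybridised to arrays. Per the labels, each deposited column is a mean over 2 array experiments. The deposited values were read as percent of the probe's highest age, from their range of 0.01 to 100 and from 420 probes at exactly 100 at 1 age and 0 probes at several. The sources used here do not give the scaling, scanner, background correction, probe choice or genome build, and depth has no counterpart on this scale. Of 897 probes, 787 have 1 gene symbol in the platform's annotation, 16 several and 94 none; a RefSeq table of GRCm38.p6 held 784 of the 787 by identifier and changed 0 symbols.

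Differences are log2 ratios of 2 ages of one probe, with the 20 values under 1% set to 1%; none of these belongs to Pfkl, Pfkm or Slc2a1. Changes of 2-fold or more were called. With 1 column per age no test, error or p-value is possible. In lists, a gene with 2 probes has their mean log2 value. The genes, lists and rules were chosen with earlier results of these data known. Named were the 3 genes, the 6 nearest courses of each, every measured gene of the energy lists, and every gene of the endothelial, astrocyte, erythroid and muscle lists up to 8. The bounds on single experiments, the counts of shapes and the motifs were added after values were seen. Alternatives were floors at the 10th and 25th percentiles, 1% added to all values, columns divided by their medians or quantile-normalized, calls at 1.5-fold and at 3-fold, other ages and another measure of likeness. Calculations used Python 3.11.15, pandas 2.3.3 and numpy 2.4.6, and were tested on simulated data.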

Additional observations from a re-analysis of the deposited data

How the results depend on the processing

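No paired analysis was possible because each age has 1 column. Over 30 values of the 3 genes and their pairs, 184 of 216 alternatives kept the direction and the side of the 2-fold rule. Some of the 216 could not move a result. The lower floor left all 30 values unchanged, and the other fold rules reuse each value and thus its direction. Column division cancels from the pairs. The count of 184 therefore overstates the stability of the results. Comparisons of P14 and P21 against E18 and of P56 against P7 and P14 were added after seeing the data. The rise of Pfkm from E18 to P56 and the difference between the changes of Pfkm and Pfkl kept direction and side under every alternative. With columns divided by their medians, Pfkl reversed at P56 against E18 (0.39) and at P14 against P7 (0.049), no longer reached 2-fold at P14 (-0.68) and P21 (-0.10) against E18, and passed it at P56 against P7 (1.13) and P14 (1.08). On that scale Slc2a1 passed 2-fold at P56 (1.47) and P21 (1.39) against E18, and Pfkm at P14 against P7 (1.33). With quantile normalization Pfkl passed 2-fold at P7 against E18 (-1.06) and did not reach it at P21 against E18 (-0.55), Pfkm passed it at P14 against P7 (1.25), and Slc2a1 reversed at P56 against P21 (-0.051). With a floor at the 25th percentile Slc2a1 did not reach 2-fold at P7 against E18 (-0.83) or P14 against P7 (0.84), nor Pfkm at P14 against E18 (0.90). With P7 in place of E18, Pfkl reversed (0.15) and Slc2a1 passed 2-fold (1.64), and with P21 in place of P56 Pfkl passed it (-1.10). A 1.5-fold rule would add Pfkl at P56 (-0.62) and P7 (-0.76) and Pfkm at P7 (0.59), all against E18, Pfkm at P14 against P7 (0.75) and Pfkl at P56 against P14 (0.67). A 3-fold rule would drop both steps of Slc2a1 (-1.18 and 1.19) and its pairs with Pfkm (1.46) and Pfkl (1.08), Pfkl at P14 (-1.29) and P21 (-1.10) against E18, and Pfkm at P14 against E18 (1.34) and P56 against P7 (1.33). Of all probes, 203 rose and 471 fell from E18 to P56; 135 rose and 234 fell by 3-fold, 147 fell with divided columns and 206 with quantile normalization. Of 3 pentose phosphate genes 1 fell with divided columns; of 4 phosphagen and nucleotide genes 0 fell with divided columns and 1 with quantile normalization; and of 4 endothelial genes 1 rose on either scale. Of the 6 genes most like Slc2a1, 3 were shared with root mean square log2 differences and 2 with divided columns. Where no construction is named, the cause was not tested. Signal over background is not known, so whether low values lie near it cannot be told.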
